A study of Mus musculus with 4 samples.

Results

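The 10 genes described here are effectors of the integrated stress response, a program by which cells meet shortage and damage, and their rows were found by gene symbol. They filled 11 of 32285 feature rows, since Ddit3 has 2 rows, and they make up 10 of 32245 symbols. The 2 Ddit3 rows were summed; the entry ENSMUSG00000116429 held 0 UMIs in every library, so the sum equals the other row alone. The transcripts of single cells were counted in 4 droplet libraries of mouse pancreatic ductal adenocarcinoma, 1 library for each group. The control animals received PBS, the PH animals paricalcitol (a vitamin D analogue) and hydroxychloroquine (a blocker of lysosomes and autophagy), and the G animals gemcitabine, a nucleoside analogue used in pancreatic cancer. The GPH group received gemcitabine at 60 mg/kg; its treatment label breaks off there, and paricalcitol and hydroxychloroquine come from its title read with the series' design text. Each library was made from tumour tissue of 3 animals together, dissociated with enzymes. Strain, age, the origin of the tumours and the other doses are not given in the sources used here. The groups were set up to ask how the pair of drugs changes the response to gemcitabine.

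In the integrated stress response, kinases that sense amino acid shortage, unfolded proteins, haem shortage or double-stranded RNA phosphorylate the initiation factor eIF2. Most translation then slows, while the mRNA of the transcription factor ATF4 is translated more. ATF4 turns on genes for other regulators (Ddit3, Atf3), for a feedback phosphatase subunit (Ppp1r15a), for modulators of kinase and growth signalling (Trib3, Sesn2, Ddit4), for glutathione breakdown (Chac1) and for amino acid synthesis (Asns, Phgdh). Since ATF4 is controlled largely at translation, the level of its own transcript is an incomplete measure of its activity.

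Motifs were sought in the 250 bases before the RefSeq start of each member (build GRCm38.p6), on both strands, in a table that held a promoter for all 10 members. The site that ATF4 and C/EBP proteins share was searched as TGATGNAA, the cyclic AMP response element as TGACGTCA, which reads the same on both strands, and the ER stress response element as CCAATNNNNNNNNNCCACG. TGATGNAA lay before Asns, Atf3 and Chac1, and in 3.45% of 32851 promoters. TGACGTCA lay before Ppp1r15a, and in 1.55% of promoters. The ER stress response element lay before no member, and in 0.113% of promoters. The 4 matches lay in 4 different promoters, so none overlapped another. The matched stretches are shown, 5′ to 3′ on the gene's strand with the match in capitals, because Atf3 and Asns both hold a TGATGNAA match and yet differed in order across the libraries. A match is a description of letters, not of binding.
Atf3, chr1:191183396-191183483, minus strand: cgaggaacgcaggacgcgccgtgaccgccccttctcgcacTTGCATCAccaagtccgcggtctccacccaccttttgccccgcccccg
Chac1, chr2:119351009-119351096, plus strand: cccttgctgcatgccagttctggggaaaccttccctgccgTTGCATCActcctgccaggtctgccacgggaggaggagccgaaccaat
Asns, chr6:7693214-7693243, minus strand: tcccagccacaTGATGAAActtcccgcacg
Ppp1r15a, chr7:45526269-45526320, minus strand: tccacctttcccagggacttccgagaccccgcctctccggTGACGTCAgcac
In Atf3 and Chac1 the shared site reads on the other strand with the same letters, and in Asns on the gene's own strand. Less of the surroundings is shown for Asns, because the longer stretch touches an exon of the other annotation used here (GENCODE vM21). The Asns stretch shown, match included, still lies inside the gene span of that annotation, so the match lies before the RefSeq start only. The Atf3 stretch also lies inside the gene span of that annotation, and the search there did not cover the outermost start it gives.

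The deposited barcodes numbered 7918 to 18589 per library and held 143298547 to 190110092 UMIs (unique molecular identifiers, each a counted transcript molecule). After the cell filters and the removal of likely doublets, 4411 to 13977 cells were left per library, with a median of 4610 UMIs in G and 20103 in GPH as the lowest and highest. In GPH 41.0% of barcodes had more than 20% mitochondrial UMIs, against 12.7% to 15.6% in the other libraries. Kept cells of 2 libraries shared 10 to 43 barcodes per pair. The libraries stand apart in other ways too: in all 3 tumour classes Nmt1 was at 95.8 to 120.2 CPM in control and GPH and at 20.3 to 28.0 CPM in PH and G. The summed Y-linked genes were at 32.5 and 37.2 CPM in Krt19-high cells of G and GPH, and at 0.7 CPM or less in the tumour classes of control and PH. With 1 library per group no such difference can be told apart from treatment, and the comparisons carry no test and no p-value. CPM are a gene's UMIs per 1000000 UMIs of a class in a library, and intervals are exact 95% intervals that cover counting error only and not the spread between animals. A gene was counted as measured with a mean of at least 20 CPM and at least 20 UMIs over both libraries of a comparison, and as higher or lower from 1.5-fold on, by size alone.

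Cells were assigned to classes by marker UMIs per cell. Dcn-positive tumour cells, with decorin and vimentin UMIs and without the leukocyte gene Ptprc, numbered 2137, 1104, 301 and 319 in the control, PH, G and GPH libraries. Vim-high Dcn-negative tumour cells numbered 4329, 8112, 1261 and 1047 in the same order. Both gates also capped Xist, so the levels of Ptprc, Xist, Vim and Dcn are set by the gates and check nothing. Cdkn2a, which no gate used, was at 808 to 1266 CPM in both classes, and Pdgfra, a fibroblast gene, at 2.1 CPM or less. Other fibroblast genes that the tumour gates did not use go the other way. In Dcn-positive cells of control, PH, G and GPH, Col3a1 was at 428, 447, 644 and 996 CPM. Dpt was at 156, 155, 168 and 464 CPM there, and Col1a1 at 53.4, 23.3, 125 and 126 CPM. Vim-high Dcn-negative cells held Col3a1 at 262, 222, 358 and 603 CPM and Dpt at 48.5, 52.9, 70.6 and 288 CPM. Krt19-high cells numbered 175, 228, 1032 and 1837. In G and GPH these had Krt8 at 3932 and 5813 CPM, Tff1 at 3077 and 2405 CPM and Cdh1 at 254 and 420 CPM, while Epcam was at 5.9 and 3.1 CPM. In control and PH the same gate took cells with Vim at 4327 and 5309 CPM, against 1509 and 2275 CPM in G and GPH. Tff1 was at 0 CPM and Cdh1 at 3.3 and 8.5 CPM, which go against an epithelial label. Epcam was at 0 CPM, but was low in G and GPH as well. Krt8 was at 729 and 1487 CPM and Krt18 at 745 and 985 CPM, so these keratins go the other way. The control and PH cells are called Krt19-gated Vim-high cells here, and the Krt19-high class was compared only between GPH and G.

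Of the regulators, Atf4, the transcription factor at the centre of the response (chr15:80255184-80257541, plus strand), was at 123, 96.3, 84.5 and 240.5 CPM in Dcn-positive cells of control, PH, G and GPH. The Vim-high Dcn-negative cells had it at 140.3, 94.7, 100.2 and 236 CPM in the same order. GPH was the highest library in both classes, and its intervals overlapped those of no other library. The GPH level was 1.96-fold that of control in Dcn-positive cells (log2 0.97, 0.88 to 1.06) and 1.69-fold in Vim-high Dcn-negative cells (log2 0.75, 0.70 to 0.80).

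Ddit3 encodes CHOP, a transcription factor tied to cell death under lasting stress (chr10:127290774-127296288, plus strand). It was at 46.1, 33.5, 47.7 and 120.1 CPM in Dcn-positive cells of control, PH, G and GPH. Its levels in Vim-high Dcn-negative cells were 43.0, 21.7, 34.9 and 119 CPM. Again GPH stood above every other library, and PH was lowest. The ratio of GPH to control was 2.61 in Dcn-positive cells (log2 1.38, 1.25 to 1.51) and 2.77 in Vim-high Dcn-negative cells (log2 1.47, 1.39 to 1.55). The end of Ddit3 overlaps Mars on the opposite strand (chr10:127296221-127311786), and whether counting used the strand is not given in the sources used here.

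Atf3, a stress-induced factor that is also an immediate early gene (chr1:191170296-191218039, minus strand), was at 262, 205, 325 and 614 CPM in Dcn-positive cells of control, PH, G and GPH. Vim-high Dcn-negative cells held 173, 108, 188 and 462 CPM. Both classes had the order GPH, G, control and PH, with intervals that did not overlap. GPH was 2.34-fold control in the first class (log2 1.23, 1.17 to 1.28) and 2.67-fold in the second (log2 1.42, 1.38 to 1.46).

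Ppp1r15a encodes GADD34, the subunit that guides the phosphatase which reverses eIF2 phosphorylation (chr7:45522916-45526268, minus strand). It was at 81.8, 98.0, 69.2 and 213 CPM in Dcn-positive cells of control, PH, G and GPH. For Vim-high Dcn-negative cells the levels were 72.4, 72.9, 66.0 and 186 CPM, so that the other 3 libraries lay close together and GPH lay apart. The ratio of GPH to control was 2.61 in the first class (log2 1.38, 1.29 to 1.48) and 2.57 in the second (log2 1.36, 1.30 to 1.43).

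**Figure D1:**
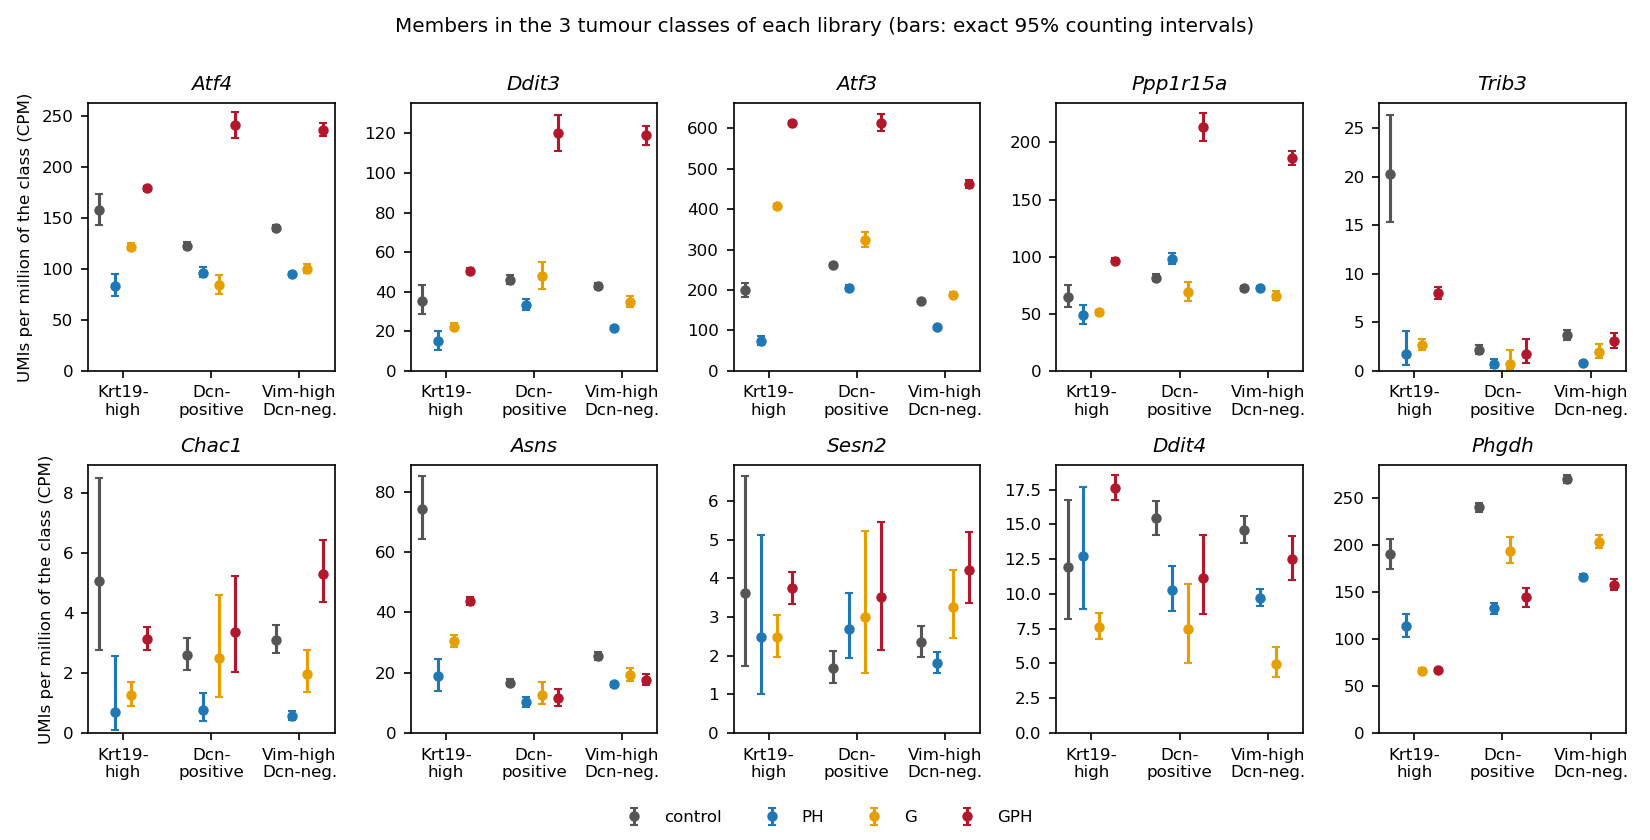
CPM of the 10 members (y axis, linear, from 0) in the 3 tumour classes (x axis) of control, PH, G and GPH (colours); points are summed UMIs as CPM and bars exact 95% counting intervals. In Dcn-positive and Vim-high Dcn-negative cells the GPH points of Atf4, Ddit3, Atf3 and Ppp1r15a lie above the other 3 libraries, while those of Asns and Phgdh do not.

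The enzymes of amino acid synthesis took another course. Phgdh, which starts serine synthesis (chr3:98313170-98339990, minus strand), was at 241, 133, 194 and 144 CPM in Dcn-positive cells of control, PH, G and GPH. Levels in Vim-high Dcn-negative cells were 271, 167, 204 and 158 CPM. Control was highest in both classes, G came next, and PH and GPH were lowest. Phgdh in GPH was 1.67-fold below control in the first class (log2 -0.74, -0.84 to -0.63) and 1.71-fold below in the second (log2 -0.78, -0.83 to -0.72).

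Asns makes asparagine from aspartate (chr6:7675169-7693254, minus strand). It was at 16.7, 10.3, 12.7 and 11.5 CPM in Dcn-positive cells of control, PH, G and GPH, under the minimum level there. The other mesenchymal class held 25.5, 16.1, 19.3 and 17.7 CPM. Control was highest in both, and the log2 ratio of GPH to control was -0.54 (-0.93 to -0.17) and -0.53 (-0.70 to -0.36).

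The remaining 4 members were sparse in these classes. Trib3, a pseudokinase induced by ATF4 and CHOP (chr2:152337422-152344032, minus strand), was at 2.18 CPM in Dcn-positive cells of control and 1.76 in GPH. The Vim-high Dcn-negative cells had it at 3.68 and 3.07 CPM. The intervals of its ratio spanned 0 on the log2 scale in both classes (-1.42 to 0.64 and -0.69 to 0.15), so no difference was detectable at this depth. Chac1, which breaks down glutathione (chr2:119351229-119354381, plus strand), was at 3.10 CPM in Vim-high Dcn-negative cells of control and 5.31 in GPH, a log2 ratio of 0.78 (0.42 to 1.13). Sesn2, an inhibitor of the growth kinase mTORC1 (chr4:132492032-132510501, minus strand), was at 2.34 and 4.21 CPM (log2 0.85, 0.44 to 1.25). Ddit4, or REDD1, which also restrains mTORC1 (chr10:59949669-59951834, minus strand), was at 14.6 and 12.5 CPM (log2 -0.22, -0.43 to -0.02). These 4 were under the minimum level and enter no count.

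For GPH against control in Dcn-positive cells 5 members were measured: Atf4, Ddit3, Atf3 and Ppp1r15a were higher and Phgdh was lower, where 23.8% of 4604 genes were higher and 9.27% lower. The median log2 ratio was 1.23 over the measured members and 0.18 over all measured genes. In Vim-high Dcn-negative cells 6 were measured, the same 4 symbols were higher and Phgdh was lower, with 23.3% of 4637 genes higher and 11.1% lower. Medians there were 1.06 and 0.14. Relative to the median of all genes, all 5 calls were kept in both classes, with Atf4 at log2 0.79 and 0.61, and Asns was lower too in Vim-high Dcn-negative cells at log2 -0.67. On that scale 15.4% of genes were higher and 16.5% lower in Dcn-positive cells, and 16.7% and 16.9% in Vim-high Dcn-negative cells.

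**Figure D2:**
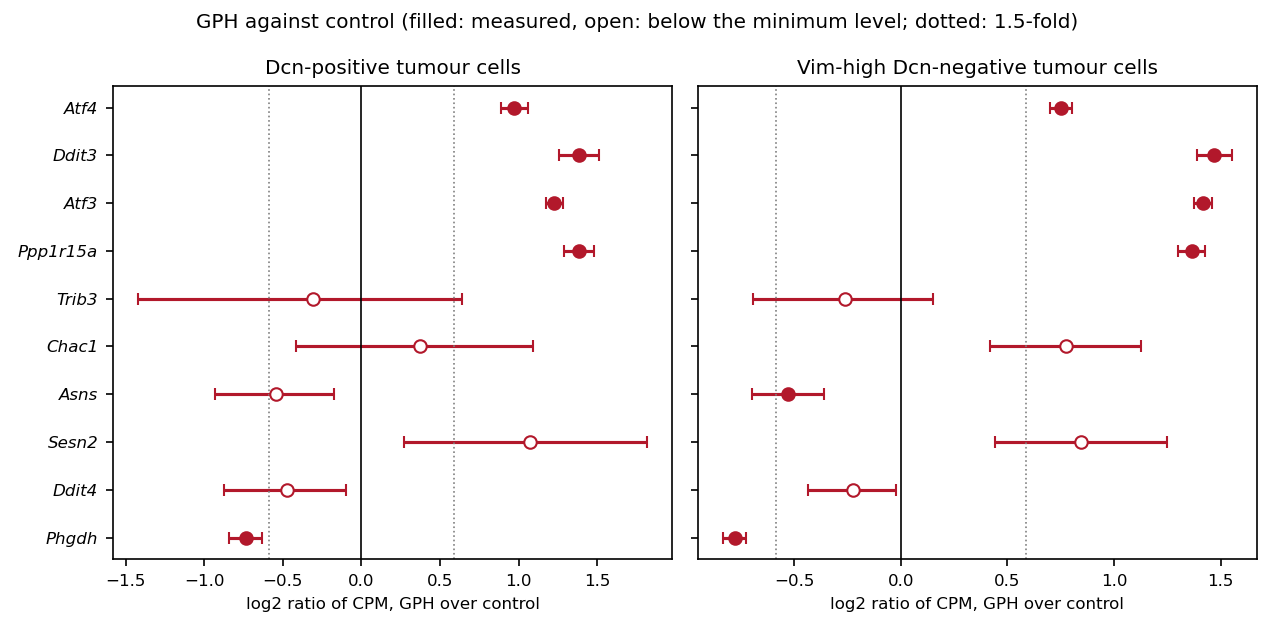
log2 ratio of CPM in GPH over control (x axis) for each member (y axis) in the mesenchymal tumour classes; filled points are measured members, open points lie under the minimum level, bars are exact 95% counting intervals and dotted lines mark 1.5-fold. The 4 regulators lie between 0.75 and 1.47 and Phgdh at -0.74 and -0.78.

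GPH was also set against each drug regimen alone in Dcn-positive cells; these comparisons share the GPH library, so they are not independent. Against G, 4 of 5 measured members were higher, namely Ppp1r15a (3.08-fold, log2 1.62, 1.43 to 1.82), Atf4 (2.85-fold), Ddit3 (2.52-fold) and Atf3 (1.89-fold). Of all genes 19.6% were higher and 5.37% lower, or 10.1% and 11.3% relative to their median. Phgdh, the fifth, was at log2 -0.43 (-0.57 to -0.28). Against PH the 4 regulators were higher as well, with Ddit3 at 3.58-fold (log2 1.84, 1.67 to 2.01), Atf3 at 2.99-fold, Atf4 at 2.50-fold and Ppp1r15a at 2.17-fold, where 17.3% of genes were higher and 3.85% lower. Phgdh differed little between GPH and PH (log2 0.12, 0.002 to 0.24). The median of the measured members was 1.33 against G and 1.32 against PH.

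The share of cells with a UMI moved with the level when every cell was thinned to 2000 UMIs. In Vim-high Dcn-negative cells Ddit3 was seen in 19.9% of GPH cells (17.5 to 22.4) and in 8.4% of control cells (7.6 to 9.3); without thinning these shares were 66.1% and 32.2%, at median depths of 15202 and 11664 UMIs. Ppp1r15a was seen in 26.9% and 14.3% of thinned cells, and Atf4 in 38.3% and 22.2%. Phgdh was seen in 23.4% of GPH cells (20.9 to 26.1) and in 34.2% of control cells (32.8 to 35.7). No class here can be taken to lack these genes, so no background share was set.

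Cells with a Ddit3 UMI had other regulators more often in some classes and libraries and not in all. In thinned Vim-high Dcn-negative cells of GPH, Atf4 was seen in 51.4% of 208 cells with Ddit3 (44.4 to 58.4) and in 35.0% of the others (31.8 to 38.4). In control these shares were 33.7% (28.9 to 38.8) and 21.1% (19.9 to 22.4). For Atf3 in Dcn-positive control cells they were 50.2% (43.3 to 57.2) and 33.4% (31.3 to 35.6). For Phgdh no difference was detectable: 33.2% (28.3 to 38.2) with Ddit3 and 34.3% (32.9 to 35.8) without it in Vim-high Dcn-negative control cells. Nor was there one for Atf4 in Krt19-high cells of GPH, with 27.9% (21.5 to 35.0) and 29.0% (26.8 to 31.2). Cells of 1 library are not replicates, and these shares describe those libraries only.

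Different clusters held most of the mesenchymal cells in different libraries. Cluster 2, led by Saa3, C3, Hmox1, Lcn2, Ccl7 and Clu, held 74.9% of the Dcn-positive cells of GPH, 41.2% in G, 30.1% in PH and 15.5% in control. It held 56.6% of the Vim-high Dcn-negative cells of GPH and 18.3%, 6.1% and 4.1% in the others. Cluster 0, led by Acta2, Dcn and Mfap4, held 50.7% of the Dcn-positive cells of control. Values were therefore also taken within cluster 2, an addition made after the data had been seen.

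Within cluster 2, Dcn-positive cells held Atf4 at 136, 102, 104 and 249 CPM (control, PH, G and GPH, the order kept for the next genes). Ddit3 was at 70.0, 35.5, 50.2 and 121 CPM, and Ppp1r15a at 131, 121, 93.6 and 229 CPM. These 3 regulators kept GPH as the highest library, with log2 ratios to control of 0.87, 0.79 and 0.80. Atf3 was at 536, 287, 569 and 708 CPM, and its ratio of GPH to control was log2 0.40 in place of 1.23, no longer past 1.5-fold. Phgdh was at 200.2, 109, 119.8 and 122 CPM, so control remained highest.
In Vim-high Dcn-negative cells of cluster 2 the log2 ratios of GPH to control were 0.81 for Atf4, 0.65 for Ddit3, 0.59 for Ppp1r15a, 0.15 for Atf3 and -0.34 for Phgdh; Atf3 and Phgdh were not past 1.5-fold there. The median over the 6 measured members was 0.37 within cluster 2, against 1.06 over all clusters. In cluster 7, with Neat1, Lars2 and Flnc among its leading genes, Atf4 was at 337 CPM in control (299 to 380) and 276 in GPH (246 to 309), the opposite order with overlapping intervals, and Ddit3 at 28.0 and 79.6 CPM.

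**Figure D3:**
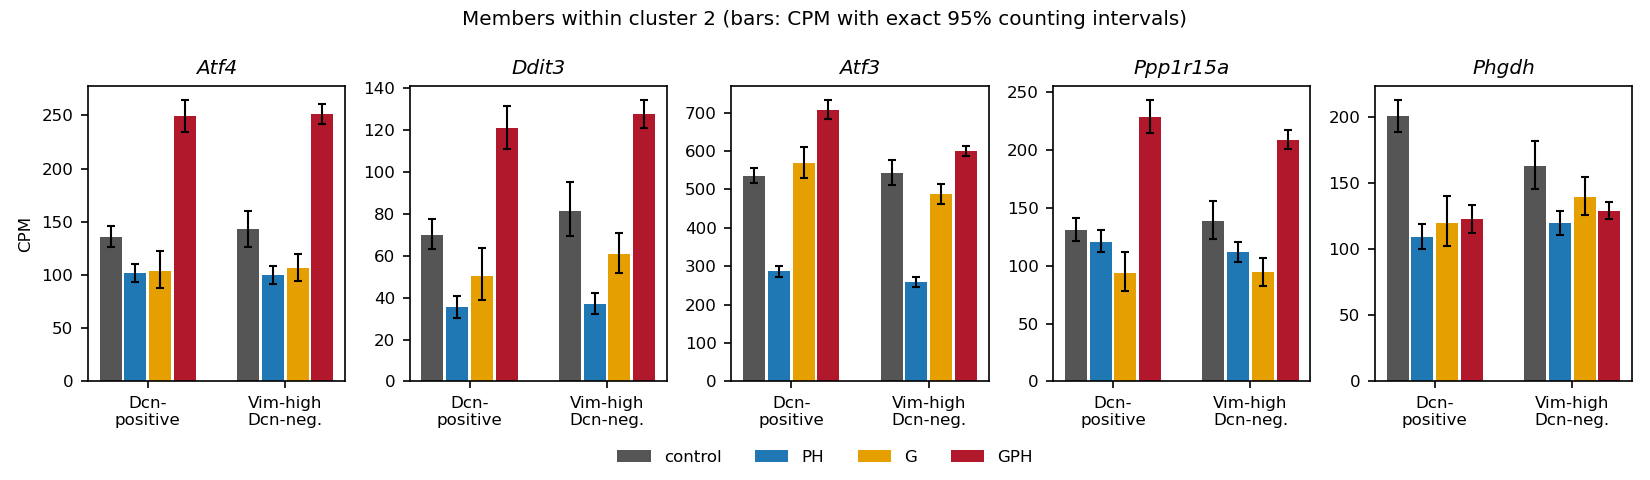
CPM (y axis, from 0) of 5 members in the Dcn-positive and Vim-high Dcn-negative cells of cluster 2 (x axis) in each library (colours), with exact 95% counting intervals. GPH is highest for Atf4, Ddit3 and Ppp1r15a, at 249, 121 and 229 CPM in Dcn-positive cells, while for Atf3 control (536 CPM) and G (569 CPM) lie nearer to GPH (708 CPM).

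Genes that respond to dissociation moved beside the regulators. The list used for them joins immediate early genes with the heat shock genes Hspa1a, Hspa1b and Dnajb1. Its genes are all called immediate early genes in the counts, for short. Of 11 measured immediate early genes, 6 were higher in GPH than in control in Dcn-positive cells (median log2 0.70) and 4 in Vim-high Dcn-negative cells (0.49, 1 lower). Against G in Dcn-positive cells 9 of 11 were higher (1.03). Zfp36, which destabilises mRNAs, was at 273 CPM in GPH, 118 in control and 71.5 in G. The summed level of the list was 10199.7 CPM in GPH, 8128 in control, 8022 in PH and 4753 in G. The median mitochondrial share of the kept Dcn-positive cells was 5.09% in GPH and 4.80% in control. These medians come after the limit of 20%, which 41.0% of all barcodes exceeded in GPH and 15.6% in control. Among cells with at most 5% mitochondrial UMIs, Ddit3 in Dcn-positive cells was at 108 CPM in GPH and 45.0 in control. The part of dissociation in these ratios was not tested.

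The wider pathway list, 50 genes not counted among the members, was counted in the same way. For GPH against control 27 were measured in Dcn-positive cells, of which 10 were higher and 2 lower. Their median log2 ratio there was 0.21, near the 0.18 of all measured genes. The Vim-high Dcn-negative cells had 27 measured, of which 9 were higher and 2 lower, with a median of 0.36 beside 0.14 over all measured genes. All 4 measured amino acid transporters, of 7 listed, were higher in both classes, with medians of 0.92 and 1.07. Of all measured genes 23.8% and 23.3% were higher. The minimum level is a mean of both libraries, so a gene low in control is counted if high in GPH. Slc7a11, and Slc7a1 in Dcn-positive cells, were under that level in control. Slc7a5, left out by it, was lower in GPH, at 5.29 against 9.25 CPM in Dcn-positive and 4.36 against 9.58 in Vim-high Dcn-negative cells. Slc1a5 and Slc6a9, also left out, were above control in both classes. Slc7a11, the cystine importer, was at 14.2, 128, 38.5 and 58.2 CPM in Dcn-positive cells of control, PH, G and GPH, so PH was its highest library. Slc3a2, the partner chain of Slc7a11, was at 119, 117, 112 and 253 CPM, highest in GPH. Ppp1r15b, the constitutive counterpart of Ppp1r15a, was at 11.5 CPM in control and 29.3 in GPH.

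Serine and one-carbon enzymes and tRNA synthetases, which ATF4 also controls, mostly stayed within 1.5-fold. None of 3 measured serine, glycine and one-carbon enzymes was higher or lower in either class (medians -0.01 and -0.03). Of the aminoacyl-tRNA synthetases 1 of 8 was higher and Gars was lower in Dcn-positive cells, and 1 of 9 was higher in Vim-high Dcn-negative cells (medians 0.22 and 0.36). Eif4ebp1, a repressor of cap-dependent translation, was lower in both classes, at 100.2 CPM in GPH against 194 in control and at 112 against 220.0.
In the other arms of the unfolded protein response, 4 of 11 genes were higher in Dcn-positive cells (median 0.33) and 2 of 11 in Vim-high Dcn-negative cells (0.34), with none lower. Dnajb9, a chaperone of the endoplasmic reticulum, was at 81.3 CPM in GPH and 34.5 in control. Hspa5, the chaperone BiP, was at 923 and 525 CPM. Of the hypoxia list 3 were higher and 4 lower in each class, of 8 and 11 measured. Bnip3 was at 28.1 CPM in GPH against 107 in control, and Hk2 at 1324 against 530.5.

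No measured member was higher in PH, the pair of drugs without gemcitabine, than in control in the mesenchymal classes. In Vim-high Dcn-negative cells 4 of 6 measured members were lower in PH than in control: Ddit3 (1.98-fold lower, log2 -0.98, -1.07 to -0.90), Phgdh (1.63-fold lower), Atf3 (1.60-fold lower) and Asns (1.58-fold lower). Of all genes 7.35% were lower and 4.99% higher. The members' median was -0.67 and that of all genes -0.03. The sparse Chac1 was at 0.565 CPM in PH against 3.10 in control (log2 -2.46, -2.92 to -2.01), and Trib3 at 0.791 against 3.68 (log2 -2.22, -2.61 to -1.84). Ppp1r15a did not follow them (log2 0.01, -0.05 to 0.06).

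In Dcn-positive cells Phgdh alone of 5 measured members was lower in PH (1.81-fold, log2 -0.86, -0.93 to -0.79), and none was higher, where 8.94% of genes were higher and 9.43% lower. Ddit3 was at log2 -0.46 (-0.60 to -0.32), short of 1.5-fold. The sparse Sesn2 was above control, at 2.69 CPM in PH and 1.68 in control (log2 0.68, 0.09 to 1.26). Trib3, Chac1, Asns and Ddit4, also under the minimum level, were below control. Of the other UPR genes 3 of 11 were lower in Vim-high Dcn-negative cells, Xbp1 among them (28.5 CPM in PH, 52.7 in control). Slc7a11 was far higher in PH there too (58.1 against 10.9 CPM). The calls varied by cluster: Ddit3 was at log2 -1.21 in the dividing cells of cluster 8, -1.14 in cluster 2 and -0.04 in cluster 3.

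With gemcitabine alone no measured member was higher or lower in either mesenchymal class. In Dcn-positive cells, where 7.35% of genes were higher and 7.42% lower, the median over 5 members was -0.24. In Vim-high Dcn-negative cells, where 3.89% of genes were higher and 5.42% lower, it was -0.35 over 6. Atf4 came nearest to the limit, at log2 -0.54 (-0.70 to -0.38) and -0.48 (-0.56 to -0.41). The sparse Ddit4 was at 4.99 CPM in Vim-high Dcn-negative cells of G against 14.6 in control (log2 -1.55, -1.88 to -1.23). Of 11 immediate early genes 7 were lower and 1 higher in each class (medians -0.71 and -0.78). The higher one was Hspa1b, a heat shock chaperone, at 75.0 CPM in Dcn-positive cells of G against 35.8 in control. Hspa5 was higher, at 1045 CPM in Dcn-positive cells of G against 525 in control.

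In Krt19-high cells, where GPH was set against G, 3 of 6 measured members were higher and none lower, with 17% of 4510 genes higher and 2.75% lower. Ddit3 was at 50.5 CPM in GPH and 22.4 in G, a ratio of 2.26 (log2 1.18, 1.06 to 1.29). Ppp1r15a was at 96.4 and 51.3 CPM (1.88-fold, log2 0.91, 0.84 to 0.99), and Atf3 at 613 and 407 CPM (1.51-fold, log2 0.59, 0.56 to 0.62). The Atf3 call rests on the limit of 1.5-fold and was lost in 7 of 13 alternatives. Relative to the median of all genes, which was 0.22 higher in GPH, 2 of 6 members were higher, and 7.58% of genes were higher and 8.03% lower.

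Atf4 and Asns were between the limits there: Atf4 at 179 and 122 CPM (log2 0.55, 0.50 to 0.60) and Asns at 43.7 and 30.5 CPM (log2 0.52, 0.42 to 0.62). Phgdh was alike in both libraries, at 67.3 and 66.4 CPM (log2 0.02, -0.05 to 0.09). The sparse members were above G as well: Trib3 at 8.01 against 2.71 CPM (log2 1.56, 1.25 to 1.89), Chac1 at 3.13 against 1.25 CPM (log2 1.32, 0.85 to 1.83) and Ddit4 at 17.7 against 7.66 CPM (log2 1.21, 1.01 to 1.40). Ddit4 was likewise above G in Vim-high Dcn-negative cells, at 12.5 CPM in GPH and 4.99 in G, with intervals apart. Trib3 was at 3.07 (2.36 to 3.94) and 1.97 CPM (1.37 to 2.76) there, with overlapping intervals.

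The class was also split by Tff1, a trefoil peptide of mucous epithelium. Asns was at 44.3 CPM in GPH cells with Tff1 and 42.5 in those without, and in G at 35.5 and 24.1. Atf3 was at 624 and 592 CPM in GPH and at 378 and 445 in G. The ratio of GPH to G for Asns was thus 1.25 with Tff1 (1.15 to 1.36) and 1.77 without it (1.57 to 1.996), and that for Atf3 was 1.65 (1.61 to 1.69) and 1.33 (1.29 to 1.37). Both lay on different sides of 1.5-fold in the 2 subsets, while Ddit3 (2.55 and 2.04) and Ppp1r15a (1.97 and 1.84) were past it in both.

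The ratios depended on the mitochondrial share of the cells. Among cells with at most 5% mitochondrial UMIs Ddit3 was at 60.4 CPM in GPH (57.8 to 63.0) and 23.8 in G (20.9 to 27.0). From over 10% to 20% it was at 40.5 CPM in 205 cells of GPH (35.3 to 46.1) and 45.9 in 102 cells of G (35.8 to 58.0), with no detectable difference. Above 20%, among barcodes left out of all other values, it was at 42.8 and 59.3 CPM. Asns went from 59.0 CPM in the lowest range to 34.0, 24.5 and 18.8 in GPH, and from 40.7 to 25.4, 20.3 and 15.7 in G. It was lower at each step in both libraries. The totals behind these CPM include mitochondrial UMIs, so a rising mitochondrial share by itself lowers the CPM of other genes. The part of RNA quality in the ratios of this class was not tested beyond these ranges.

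**Figure D4:**
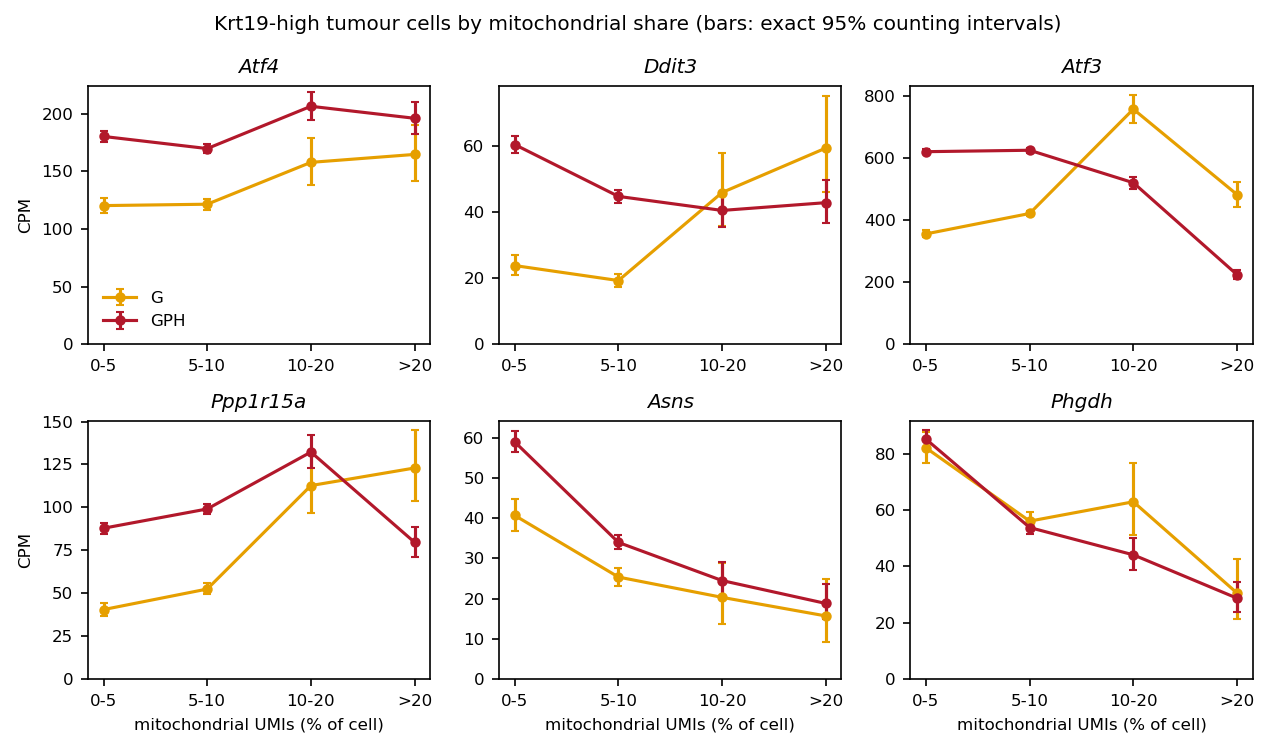
CPM (y axis, from 0) of 6 members in Krt19-high cells of G and GPH (colours) by the mitochondrial share of their UMIs (x axis, in %), with exact 95% counting intervals; the range over 20% holds barcodes left out elsewhere. Ddit3 is higher in GPH than in G at 0 to 5% (60.4 and 23.8 CPM) and not at 10 to 20% (40.5 and 45.9 CPM).

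Other pathway genes in Krt19-high cells included Slc6a9, a glycine transporter (37.9 CPM in GPH, 11.3 in G), and the synthetases Wars (193 and 86.4) and Sars (182 and 95.7). Of 30 measured genes of the wider list 7 were higher and 1, Cebpb, was lower (201 and 329.8 CPM), with a median of 0.40. None of the 11 other UPR genes was higher or lower (median -0.02). Of 11 immediate early genes 7 were higher (median 0.89), with Jun at 633 CPM in GPH and 176 in G, and Hspa1b was lower (37.0 and 56.6 CPM).

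The Krt19-gated Vim-high cells of control had the highest Trib3 and Asns among the 21 pairs of class and library with at least 100 cells, at 20.3 CPM (15.3 to 26.3) and 74.2 CPM (64.4 to 85.0). In PH these were 1.77 and 18.8 CPM. They are 175 and 228 cells, of which 54.9% and 50.9% fell in cluster 1. Of the 56 Trib3 UMIs in control, 71.4% lay in the top 10% of cells.

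Of macrophages GPH held 19, so PH and G alone were set against control. They numbered 114 in control, 191 in PH and 949 in G. Atf3 was at 304 CPM in control, 191 in PH and 191 in G, lower in PH (log2 -0.67, -0.86 to -0.48) and in G (log2 -0.67, -0.82 to -0.52). Ppp1r15a was at 73.9, 138 and 65.7 CPM, higher in PH (1.86-fold, log2 0.90, 0.59 to 1.22). Immediate early genes moved beside it in PH, with 4 of 12 higher and 1 lower (median 0.45) and Zfp36 at 486 CPM against 164 in control, and their part in the Ppp1r15a level was not tested. Of 4 members measured for PH, 1 was higher and 1 lower, where 13.7% of genes were higher and 11.3% lower. Of 5 measured for G, 2 were lower and none higher, where 20% of genes were higher and 22.3% lower.

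The second lower member in G was Phgdh, at 39.4 CPM in control, 32.3 in PH and 8.65 in G (log2 -2.19, -2.71 to -1.66). The macrophages also held the tumour transcript Cdkn2a, at 219 CPM in control, 152 in PH and 31.9 in G. In the 81 control cells with 0 UMIs of Cdkn2a, Phgdh was at 4.54 CPM; it was at 4.42 in 150 such cells of PH and 3.67 in 901 of G. Without the cells that held Cdkn2a the libraries thus lay close together for Phgdh. The remaining cells still held the keratin gene Krt8, at 7.95 CPM in control, 6.63 in PH and 26.2 in G. Cdkn2a was lower in Krt19-high cells of G (231 CPM) than in the mesenchymal classes, so its absence does not clear all tumour transcripts alike. In the macrophages with 0 UMIs of Cdkn2a, Atf3 was at 379, 189 and 173 CPM and Ppp1r15a at 87.4, 158 and 64.6 CPM. Atf3 was thus again lower, and Ppp1r15a again higher in PH, than in control.

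T cells numbered 442 in control, 419 in PH and 3453 in G, and 60 in GPH, too few to compare. Atf3 was at 151 CPM in control, 79.5 in PH and 47.2 in G, and was lower in both (log2 -0.92, -1.21 to -0.65, and log2 -1.68, -1.86 to -1.49). Cdkn2a was at 363, 316 and 39.6 CPM in these cells. In the T cells with 0 UMIs of it, 368, 360 and 3247, Atf3 was at 41.0 CPM in control, 16.1 in PH and 38.7 in G. The difference between G and control was then log2 -0.08, while that between PH and control was -1.34. Krt8 remained in these T cells, at 22.9 CPM in control, 10.4 in PH and 36.2 in G.

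Ppp1r15a was at 87.3 CPM in T cells of control, 70.5 in PH and 38.2 in G, lower in G (2.29-fold, log2 -1.19, -1.42 to -0.96). It stayed at 89.1, 66.5 and 39.7 CPM in T cells without Cdkn2a. In G 11 of 12 immediate early genes were lower than in control (median -1.36), and their part in the Ppp1r15a level was not tested. Phgdh was at 119.5 CPM in control, 66.8 in PH and 90.6 in G, lower in PH (log2 -0.84, -1.15 to -0.53). Without the cells that held Cdkn2a, it was at 66.2 CPM in control (52.8 to 82.0), 31.3 in PH (21.6 to 44.0) and 84.2 in G (79.7 to 88.8), so G then lay above control with overlapping intervals. Of 6 measured members 2 were lower and none higher in each comparison, where 9.02% of genes were higher and 9.14% lower for PH, and 8.85% and 13.8% for G. Atf4 and Ddit3 were within 1.5-fold of control in both.

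**Figure D5:**
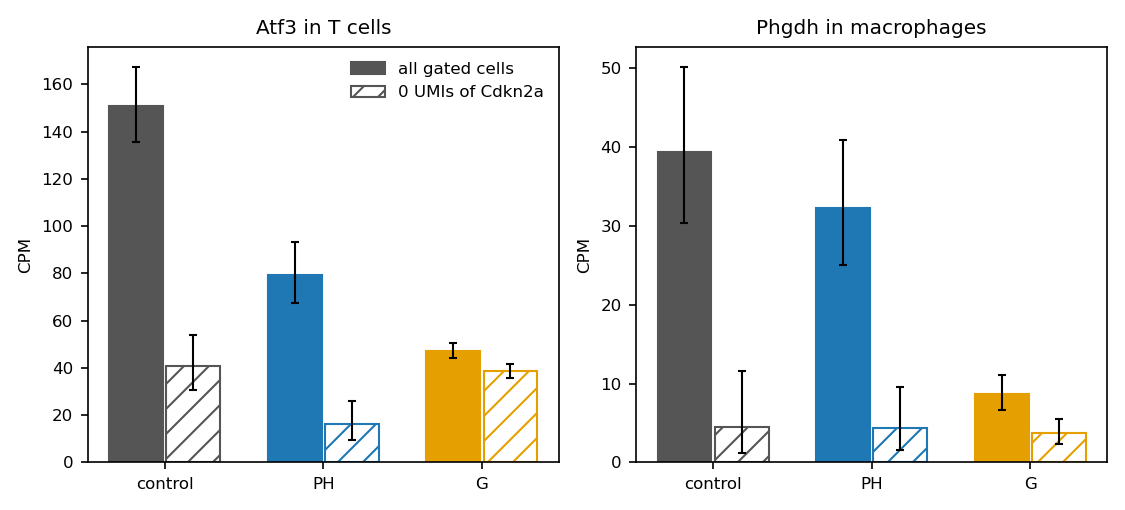
CPM (y axis, from 0) of Atf3 in T cells and Phgdh in macrophages of control, PH and G (x axis), in all gated cells (filled) and in those with 0 UMIs of the tumour transcript Cdkn2a (hatched), with exact 95% counting intervals. Atf3 in control T cells is at 151 CPM in all cells and 41.0 CPM without Cdkn2a, and Phgdh in control macrophages at 39.4 and 4.54 CPM.

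Over the 21 pairs of class and library with at least 100 cells, each member had its own order. Ddit3 was highest in neutrophils of G at 266 CPM, then in Dcn-positive and Vim-high Dcn-negative cells of GPH, whose intervals overlapped, and lowest in macrophages of PH at 12.8 CPM. Neutrophils, present in numbers in G alone (433 cells, median of 1108 UMIs), were also highest for Atf3 (705 CPM) and Ppp1r15a (303). On 809459 UMIs in the whole class, they were highest for the sparse Chac1 (18.5 CPM, 10.4 to 30.6) and Sesn2 (28.4 CPM, 18.0 to 42.6) as well. They held Krt19 at 642 and Krt8 at 757 CPM beside S100a8 at 39180.5 CPM, so transcripts of other cells were present in them. Ddit4 was highest in NK cells of G and control, at 40.7 and 37.9 CPM, followed by T cells, with overlapping neighbours. Phgdh was highest in the mesenchymal classes of control and lowest in macrophages of G, a range of 31.3-fold, against 2.89-fold for Atf4.

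By Pearson's r of log2(CPM + 5) over these 21 pairs, the most alike among 4726 genes with a mean of at least 20 CPM, which leaves out Chac1, Asns and the other sparse members, were Wipi2 (0.85), Ppm1a (0.83) and Grina (0.80) for Ddit3, and Hk1 (0.79), Ero1l (0.77) and Triobp (0.76) for Trib3. For Asns they were Cnot7 (0.87), Bok (0.87) and Serpinb1a (0.86), and for Ddit4 Zcchc7 (0.91), Tiprl (0.88) and Ubac2 (0.87). Among the members Ddit3 went most closely with Chac1 (0.86) and Ppp1r15a (0.78), and Trib3 with Asns (0.82). Chac1 was at 18.5 CPM in neutrophils of G and at most 5.31 elsewhere. Trib3 was at 20.3 and 8.01 CPM in the Krt19-high gate of control and GPH and at most 4.94 elsewhere. Most values of these sparse members thus lay near or under the 5 CPM added. Sesn2 and Phgdh (-0.64) and Atf3 and Ddit4 (-0.62) ran opposite. Pairs from 1 library share that library and its depth, and these values describe the 21 pairs only.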

How the data were processed

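The files hold deposited UMI counts per gene and barcode from 4 droplet libraries, filtered to cells by the authors. Cell Ranger 6.1 and build mm10 stand in the submitters' processing notes, while version 7.0.1 stands in the file headers, so the version that made these counts is uncertain. The members and lists were chosen with earlier results of these data known.

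Barcodes with at least 500 UMIs, 300 genes and at most 20% mitochondrial UMIs were kept. An automatic doublet cut called 0 to 7 barcodes per library, so the highest doublet scores were removed instead, at 0.8% per 1000 barcodes (168 to 2056 barcodes). Cells were clustered with scanpy 1.11.5 (2000 variable genes, 30 components, 15 neighbours, resolution 1), and classes were gated by fixed marker UMIs. Tumour cells needed 0 UMIs of Ptprc, at most 1 of Xist and at least 2000 UMIs. Of these, Krt19-high cells needed 1000 CPM and 3 UMIs of Krt19. The mesenchymal classes lay below that and needed 1000 CPM of Vim with 2 UMIs of Dcn, or 2000 CPM of Vim with 0 of Dcn. T cells needed Ptprc and 2 of 5 markers, macrophages Ptprc and 3 of 8. Clusters and gates were made on the same cells, and names rest on these markers.

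UMIs were summed per class and library and divided by the total of the class. Ratios have exact conditional binomial intervals and levels exact Poisson intervals at 95%, and shares of cells exact binomial intervals (scipy 1.17.1), covering counting error only. A comparison needed 100 cells of the class in both libraries, and 13 comparisons were made. The ratio script was tested on simulated data. All 10 members were named, and of the wider lists at most the 3 highest and 3 lowest per comparison, ranked by the interval bound nearest to 0. For likeness, log2(CPM + 5) was used. Gene positions come from GENCODE vM21 (11 of 11 member rows matched by Ensembl ID) and promoters from RefSeq on GRCm38.p6, the assembly that mm10 names. With 1 library per group no test between groups was run. Alternatives changed doublets, mitochondrial limits, gates, weights, scaling, filters, the Ddit3 rows and depth, and later, with the data in view, restricted the cells to 1 cluster or to those without Cdkn2a.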

Additional observations from a re-analysis of the deposited data

How the results depend on the processing

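No paired analysis was possible because each group has 1 library. Of the members' median log2 ratios, 173 stayed on their side of 1.5-fold, 18 crossed it and none of those past it reversed. For PH against control in Vim-high Dcn-negative cells (-0.67) the median came within 1.5-fold with stricter gates (-0.55) and within clusters 1 (-0.47), 3 (-0.047), 6 (-0.51), 8 (-0.52) and 9 (-0.38). For GPH against control there it was 0.37 within cluster 2. For PH against control in Dcn-positive cells (-0.36) it passed 1.5-fold within clusters 0 (-0.69) and 2 (-0.88). For GPH against G in Krt19-high cells (0.57) it passed with a mitochondrial limit of 10% (0.61), classes from clusters (0.62), no filter on low values (0.75) and thinned cells (0.59). In T cells it passed for PH with classes from clusters (-0.80), and for G with no doublets removed (-0.70), classes from clusters (-0.87) and a mean of 50 CPM (-0.81). In macrophages of G it passed with cells at equal weight (-0.68). Of the single ratios of members called higher or lower, 337 were alike, 167 moved and 1 reversed. A ratio that moved had not necessarily crossed 1.5-fold. The reversed ratio was that of Atf4 in Vim-high Dcn-negative cells of GPH against control, at log2 -0.29 within cluster 7. The causes were not tested. Calls that came within 1.5-fold under an alternative included Atf3 for GPH in Vim-high Dcn-negative cells (clusters 0 and 2), Phgdh there (the same clusters and classes taken from clusters), Asns for PH there (stricter gates, clusters 0, 2 and 8), Ddit3 for PH there (cluster 3), Phgdh for PH there (clusters 1, 2, 3, 6, 8 and 9) and Ppp1r15a in macrophages of PH (cells thinned to 2000 UMIs, log2 0.45). Atf3 in Dcn-positive cells of GPH against G fell within the limit with cells at equal weight, thinned or within cluster 2 (log2 0.31 at the lowest). The ratios of Ddit3 and Ppp1r15a for GPH stayed past 1.5-fold under every alternative run in the 3 tumour classes. The split of Krt19-high cells by mitochondrial share was not among these alternatives. Among Krt19-high barcodes with over 10% mitochondrial UMIs, Ddit3 was not higher in GPH than in G in either range. Stricter gates were not run for macrophages, which left 40 control cells, and no call was made for macrophages without Cdkn2a, of which control held 81. Depth limits Trib3, Chac1 and Sesn2 in the mesenchymal classes.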
